A study of Homo sapiens with 6 samples.

Results

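The genes described here are 10 core components of the G1 phase of the cell cycle: the D-type cyclins CCND2 and CCND3, the E-type cyclins CCNE1 and CCNE2, the kinases CDK4, CDK6 and CDK2, the CDK inhibitors CDKN1B and CDKN2C, and the retinoblastoma gene RB1. They were chosen by symbol, each symbol had a row, and they make up 10 of 36601 rows in the gene count table. RNA was sequenced from NK92, a human natural killer lymphoma line that depends on IL-2, after stable expression of a control shRNA (shCtrl) or of an shRNA directed at the lncRNA miR155HG (shmiR155HG). Each group had 3 libraries, and both groups had received 1000 U/mL of IL-2 together with 10 ng/mL of IL-12 for 12 h, so there is no unstimulated group to compare. The library labels do not say whether the replicates of a group came from separate transductions or cultures, and p-values then measure only the spread between these libraries.

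Passage through G1 is set by D-type cyclins, which bind and activate CDK4 and CDK6, and by E-type cyclins, which activate CDK2. These kinases phosphorylate RB1, which otherwise holds E2F transcription factors inactive, and freed E2F switches on the genes of DNA replication, the E-type cyclins among them. INK4 inhibitors such as the product of CDKN2C (p18) block CDK4 and CDK6, whereas the product of CDKN1B (p27) binds cyclin–CDK complexes and restrains CDK2. In lymphocytes, including NK cells, IL-2 receptor signaling through STAT5 is known to drive D-type cyclin expression and entry into the cycle. The comparison asks how this machinery stood at the mRNA level once miR155HG had been silenced, since the study links miR155HG to NK cell proliferation.

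The total count was 33454786 to 39157264 per library, and scaling factors by the TMM method lay between 0.9966 and 1.003. The target, MIR155HG, had 73, 67 and 62 counts in the shCtrl libraries and 28, 19 and 10 in the shmiR155HG libraries, so the lower counts fell where the labels place the knockdown (log2 fold change −1.78, SE 0.43, adjusted p = 0.00450). These counts are low, and MIR155HG passed the expression filter through the shCtrl libraries alone. JAK3, a kinase of the IL-2 receptor, was lower as well (log2 fold change −0.39, SE 0.056, adjusted p = 1.23e-05). Of 13 NK cell markers, 12 exceeded 1 CPM (TMM-scaled counts relative to library size) in some library, CD7 being the exception. Their sum was 4855 to 4887 CPM in shCtrl and 4484 to 4649 CPM in shmiR155HG libraries. Of the 12 that were tested, 3 were lower (GZMB, PRF1 and NCR3) and 4 higher (IL2RB, EOMES, TBX21 and KLRC1), with a median log2 fold change of 0.07. This was 58.3% called at an adjusted p under 0.05, against 15.3% of all genes tested. The cytotoxic granule gene GZMB went from a mean of 1195 to 542.9 CPM, and IL2RB, a chain of the IL-2 receptor, from 1006 to 1270.0 CPM. Of 15 markers of T, B, myeloid and erythroid cells, 4 exceeded 1 CPM in some library and HBB was at 0 in all, with a sum of 404.6 to 415.4 CPM in shCtrl and 405.7 to 421.7 CPM in shmiR155HG libraries that was nearly all CD3E and TRAC. The other 13 summed to 5.35 to 7.03 and to 4.17 to 6.83 CPM. The part of these differences in the results on the 10 genes was not tested.

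Of the 10 genes, 5 were lower and 1 was higher in shmiR155HG cells at an adjusted p under 0.05 (edgeR's quasi-likelihood test, Benjamini–Hochberg adjustment over all 12263 genes tested). CCNE2, CCND3, CDK2, CDK6 and RB1 fell, and CCND2 rose. CCNE1, CDK4, CDKN1B and CDKN2C did not pass. Among all genes tested, 15.3% were called, 8.02% as lower and 7.26% as higher. The 10 genes and the lists described here were chosen with earlier results of these data known. Their shares called are therefore a description and not a test. For 8 of the 10 genes no value of a group reached into the other group, against 30.8% of all genes tested. The median log2 fold change of the 10 genes was −0.20 and that of all genes tested was 0.001. The changes were small in size: the largest, that of CCNE2, left 61.1% of the shCtrl level, and the other called genes that fell kept 78.3% to 89.2%. In RNA from whole cultures, fewer cells in a phase of the cycle and less mRNA per cell cannot be told apart.

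**Figure D1:**
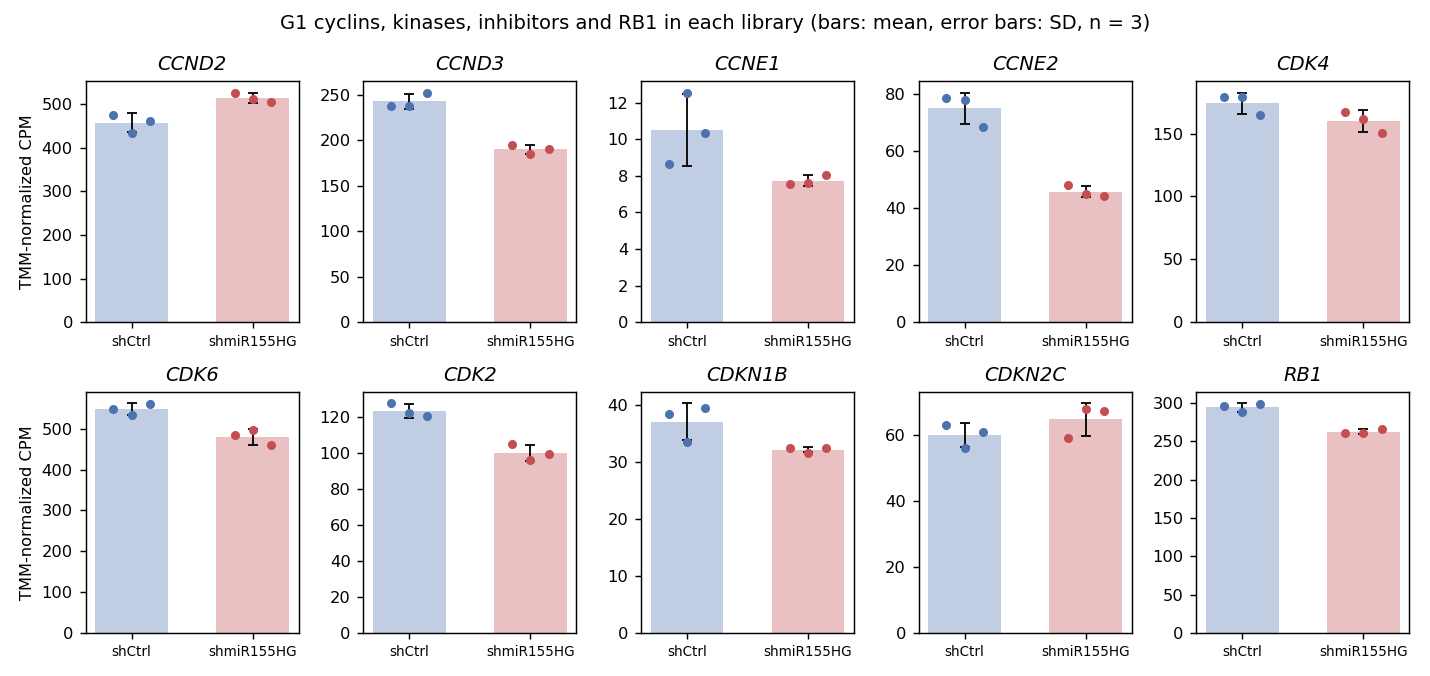
TMM-normalized CPM of the 10 genes in each library, on axes that start at 0. Points are libraries, bars are means and error bars are SDs (n = 3); the groups are separate for every gene except CDK4 and CDKN2C, with CCND2 alone higher in shmiR155HG cells among the genes whose groups are separate.

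The D-type cyclins moved in opposite directions. CCND2 (ENSG00000118971) lies at chr12:4269771-4305353 (hg38, plus strand), and its canonical transcript has 5 exons and 6493 nt. ENSG00000285901, a gene without counts here, overlaps its exons on the same strand. The level of CCND2 was 476.6, 433.7 and 462.2 CPM in shCtrl replicates 1, 2 and 3, and 527.2, 511.7 and 505.7 CPM in shmiR155HG replicates 1, 2 and 3. All shmiR155HG libraries lay above all shCtrl libraries, and the log2 fold change was 0.17 with an SE of 0.036 (adjusted p = 0.00121), or 113% of the shCtrl level. CCND3 (ENSG00000112576), at chr6:41934934-42050357 (minus strand), has a canonical transcript of 5 exons and 2026 nt. Its level was 238.1, 238.1 and 252.8 CPM in shCtrl and 194.7, 185.1 and 190.9 CPM in shmiR155HG libraries. Here the order was the reverse, with every shmiR155HG library below every shCtrl library, and the log2 fold change was −0.35 with an SE of 0.039 (adjusted p = 1.98e-07). CCND1, the D-type cyclin of many epithelial cells, was close to absent, with 0, 0 and 14 counts in shCtrl and 0, 12 and 2 counts in shmiR155HG libraries, and it was not tested.

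Because a longer transcript yields more reads, levels of different genes were set side by side per kilobase of canonical transcript. On this scale CCND3 was the more abundant D-type cyclin in shCtrl cells, at 120.0 ± 4.20 CPM per kb (SD, n = 3) against 70.5 ± 3.37 for CCND2. In shmiR155HG cells the levels were 93.9 ± 2.38 and 79.3 ± 1.71 CPM per kb. The share of CCND2 in the sum of both was 38.5%, 36.2% and 36.3% in shCtrl libraries and 45.8%, 46.3% and 45.3% in shmiR155HG libraries. The groups did not overlap. The log2 ratio of CCND2 to CCND3 counts was 0.91 ± 0.077 (SD, n = 3) in shCtrl and 1.44 ± 0.030 in shmiR155HG libraries, a difference of 0.52. A two-sided exact permutation test gave p = 0.1, which is the lowest value possible with 3 against 3 libraries, and an adjusted p of 0.3 over the 3 ratios tested. Among all 10 genes in shCtrl cells, the order on this scale was CCND3, CDK4, CCND2, RB1, CDKN2C, CDK2, CDK6, CCNE2, CDKN1B and, at a mean of 5.38 CPM per kb, CCNE1, and RB1 (61.8 ± 1.15) and CDKN2C (60.2 ± 3.60) did not differ beyond their spread. With merged exon lengths, a setting added after seeing the data, the order was CCND2, CDK4, RB1, CDK6, CCND3, CDK2, CDKN2C, CCNE2, CCNE1 and CDKN1B, and CDKN2C stood at 19.9 in place of 60.2 CPM per kb, so the order of levels between genes depends on the length used. The sum of both D-type cyclins was 190.4 ± 5.84 CPM per kb in shCtrl and 173.2 ± 3.69 in shmiR155HG cells. With the merged length of all annotated exons, these sums were 99.5 ± 3.34 and 97.5 ± 2.02 with overlapping groups, CCND2 became the more abundant of the pair (57.6% and 66.1% of the sum), and its share was still higher in every shmiR155HG library.

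**Figure D2:**
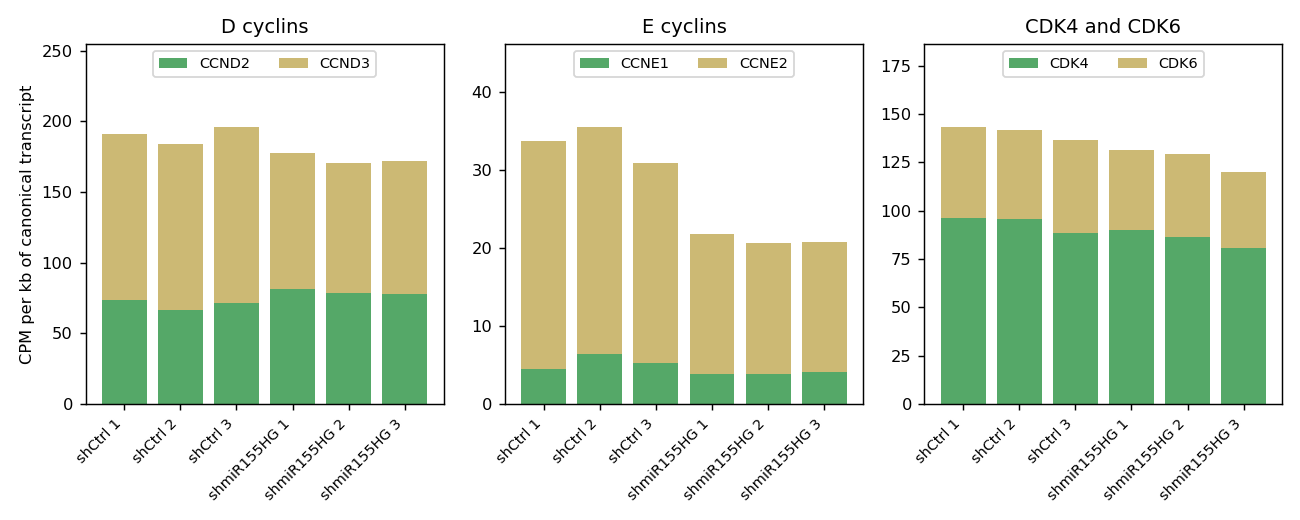
Level per kilobase of canonical transcript of each pair of paralogs in every library, stacked so that the height is the sum of the pair. The CCND2 part of the D-type cyclins is larger in each shmiR155HG library, and the E-type cyclin sum drops from a mean of 33.4 to 21.1 CPM per kb.

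Of the E-type cyclins, CCNE2 was lower and CCNE1 did not pass the test. CCNE2 (ENSG00000175305) lies at chr8:94879770-94896678 (minus strand) and has 12 exons in its canonical transcript of 2674 nt. It was measured at 78.4, 77.8 and 68.4 CPM in shCtrl libraries and at 48.0, 44.8 and 44.4 CPM in shmiR155HG libraries, with a wide gap between the groups. The log2 fold change was −0.71 with an SE of 0.067 (adjusted p = 1.12e-08). Exons of CCNE2 share 1629 nt with exons of INTS8 on the opposite strand, and whether strand was used in counting is not given in the sources used here. INTS8, a subunit of the Integrator complex, was also lower, with a log2 fold change of −0.23 with an SE of 0.047 (adjusted p = 9.42e-04). The part of INTS8 reads in the CCNE2 difference was not tested.

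CCNE1 (ENSG00000105173), at chr19:29811991-29824312 (plus strand), is the other E-type cyclin and had the lowest CPM of the 10 genes. It had 337, 458 and 402 counts in shCtrl and 289, 289 and 270 in shmiR155HG libraries, or 8.66, 12.6 and 10.3 CPM against 7.53, 7.59 and 8.07 CPM. The groups did not overlap, but shCtrl replicate 1 lay close to the shmiR155HG libraries. The log2 fold change was −0.44 with an SE of 0.16 (adjusted p = 0.0601), with a 95% interval from −0.77 to −0.12 before adjustment over genes, and it passed without shCtrl replicate 1 (adjusted p = 0.0284 by edgeR, in a range from 0.0284 to 0.323 over 15 alternatives). Per kilobase, CCNE1 made up 16.1% ± 2.62 (SD, n = 3) of the E-type cyclin mRNA in shCtrl and 18.8% ± 1.12 in shmiR155HG cells, with overlapping groups. The log2 ratio of CCNE1 to CCNE2 differed by 0.28 between the groups (two-sided exact permutation p = 0.2, adjusted p = 0.3), a value that moved from 0.12 without shCtrl replicate 1 to 0.39 without shCtrl replicate 2. Cyclin E mRNA as a whole was 33.4 ± 2.35 CPM per kb in shCtrl and 21.1 ± 0.642 CPM per kb in shmiR155HG cells, and the groups did not overlap.

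CDK2 (ENSG00000123374, chr12:55966781-55972789, plus strand), the partner of cyclin E, was lower together with CCNE2. Its level was 127.8, 122.1 and 120.8 CPM in shCtrl and 105.1, 96.1 and 99.3 CPM in shmiR155HG libraries. The groups were separate, and the log2 fold change was −0.30 with an SE of 0.049 (adjusted p = 7.12e-05), or 81.1% of the shCtrl level. A lncRNA on the opposite strand that was too low to be tested shares 565 nt of exon with CDK2.

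CDK6 and CDK4, the partners of cyclin D, both had negative fold changes, and CDK6 alone passed the test. CDK6 (ENSG00000105810) lies at chr7:92604921-92836573 (minus strand). It was measured at 549.2, 532.5 and 561.7 CPM in shCtrl and at 483.4, 496.4 and 459.5 CPM in shmiR155HG libraries. No values overlapped, and the log2 fold change was −0.19 with an SE of 0.035 (adjusted p = 2.60e-04). CDK4 (ENSG00000135446), at chr12:57747727-57756013 (minus strand), was at 179.4, 178.9 and 164.5 CPM against 167.6, 161.6 and 150.3 CPM. Its shCtrl replicate 3 fell within the range of the shmiR155HG libraries, and the log2 fold change was −0.12 with an SE of 0.046 (adjusted p = 0.0679, 95% interval −0.22 to −0.03). It passed in 3 of 15 alternatives, with an adjusted p from 0.0163 without shCtrl replicate 3 to 0.347. CDK4 shares 1369 nt of exon with TSPAN31 on the opposite strand, which had a log2 fold change of 0.01 with an SE of 0.12 (adjusted p = 0.974).

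CDK6 had more CPM than CDK4, but its canonical transcript of 11663 nt is also longer than that of CDK4 (1865 nt). Per kilobase CDK4 was the more abundant kinase, at 93.4 ± 4.51 CPM per kb (SD, n = 3) against 47.0 ± 1.26 for CDK6 in shCtrl cells, and it took 66.5% ± 1.62 of their sum there and 67.6% ± 0.765 in shmiR155HG cells. With merged exon lengths the share of CDK4 was 55.7% ± 1.79 in shCtrl and 56.8% ± 0.858 in shmiR155HG cells. The log2 ratio of CDK4 to CDK6 differed by 0.07 between the groups (two-sided exact permutation p = 0.5, adjusted p = 0.5). This is the size of the spread within a group (SD 0.10 and 0.051), so a difference between the changes of these kinases was not detectable with these libraries.

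**Figure D3:**
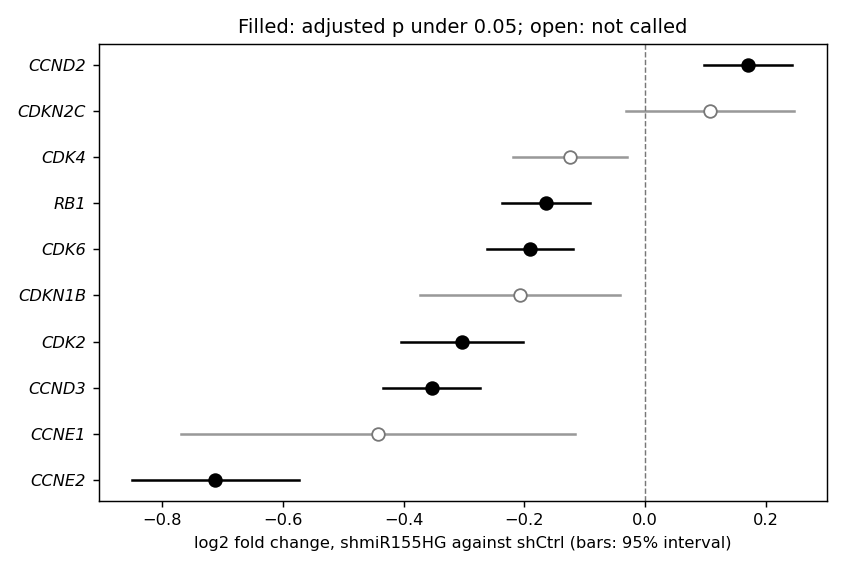
Log2 fold change of each of the 10 genes (shmiR155HG against shCtrl) with its 95% interval from the quasi-likelihood fit, filled where the adjusted p is under 0.05. CCNE2 stands farthest from 0 at −0.71, the interval of CDKN2C spans 0, and CCND2 is the 1 called gene to the right of 0.

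RB1 (ENSG00000139687), the substrate of these kinases, lies at chr13:48303744-48599436 (plus strand), and the annotated genes that overlap this span, such as LPAR6, share no exon bases with it. Its level was 296.9, 288.3 and 298.4 CPM in shCtrl and 261.2, 260.5 and 266.7 CPM in shmiR155HG libraries. The libraries of a group lay close together and the groups were separate, with a log2 fold change of −0.16 with an SE of 0.036 (adjusted p = 0.00164), or 89.2% of the shCtrl level. Of its paralogs, RBL1 (p107) was lower as well (log2 fold change −0.18, SE 0.059, adjusted p = 0.0361), but it did not pass once any 1 library other than shCtrl replicate 2 was left out (adjusted p = 0.0528 to 0.228 by edgeR).

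Neither CDK inhibitor passed the test, and their fold changes had opposite signs. CDKN1B (ENSG00000111276, chr12:12685498-12722369, plus strand) was at 38.5, 33.5 and 39.5 CPM in shCtrl and at 32.5, 31.6 and 32.4 CPM in shmiR155HG libraries. The groups did not overlap, with shCtrl replicate 2 only just above the shmiR155HG libraries. The log2 fold change was −0.21 with an SE of 0.081 (adjusted p = 0.0862, 95% interval −0.37 to −0.04), and without shCtrl replicate 2 it was −0.28 (adjusted p = 0.0404 by edgeR, in a range from 0.0404 to 0.264 over 15 alternatives). CDKN2C (ENSG00000123080, chr1:50960745-50974634, plus strand) was at 63.1, 56.0 and 60.7 CPM against 58.9, 67.7 and 67.2 CPM, with overlapping groups. Its log2 fold change was 0.11 with an SE of 0.068 (adjusted p = 0.324), and the 95% interval from −0.03 to 0.25 allows a level between 97.9% and 119% of that in shCtrl cells.

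Other inhibitors give the setting in which these 2 genes act. CDKN2A, which encodes p16 and, from another reading frame, p14ARF, was the INK4 gene with the highest level at 190.9 ± 3.47 CPM (SD, n = 3) in shCtrl and 202.3 ± 5.62 CPM in shmiR155HG cells (log2 fold change 0.08, SE 0.039, adjusted p = 0.164). The groups did not overlap, and its isoforms are not separated in counts per gene. Per kilobase it took 71.8% ± 0.864 of the INK4 sum of CDKN2A, CDKN2C and CDKN2D in shCtrl and 72.3% ± 1.15 in shmiR155HG cells. With merged exon lengths this share was 58.0% ± 0.306 and 59.7% ± 1.29, so its size depends on the length used. CDKN1A (p21), the p53-induced inhibitor, had 28, 45 and 12 counts against 35, 17 and 43, near the detection limit of these libraries (log2 fold change 0.22, SE 0.51, adjusted p = 0.832, and −0.15 without shCtrl replicate 3). CDKN2B (p15) had 0 to 13 counts in each library and was not tested.

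The seed of miR-155-5p, the miRNA cut from the MIR155HG transcript, was looked up in these genes because that transcript had lower counts after knockdown. Mature miR-155 was not measured in these libraries. In the paper, a miR-155 mimic did not restore JAK3 protein in NK92 cells with miR155HG silenced. The mature sequence of RefSeq (GRCh38.p14, plus strand of chr21:25573983-25574006) is given with bases 2 to 8, the seed, in capitals, and below it the single match to the seed among the 3′UTRs of the 10 canonical transcripts, which is in CDKN1B at chr12:12721232-12721238 (hg38, plus strand), bases 205 to 211 of the 3′UTR, with the 7 matching bases in capitals.
hsa-miR-155-5p: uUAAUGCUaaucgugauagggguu
CDKN1B site: gttggatgtAGCATTAtgcaattag
Such a match, AGCATTA, was present in 11.9% of the 10763 genes tested that have an annotated 3′UTR, and in 1 of these 10 genes. A match is a description of the sequence, and the value of CDKN1B beside it is the log2 fold change of −0.21 that did not pass the test.

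For CCND3 and CDK6, called genes of the cyclin D–kinase pair with an entry in RefSeq's promoter table at the canonical start, the 200 bases just upstream of the start are shown 5′ to 3′ on the minus strand, at chr6:41941809-41942008 and chr7:92836574-92836773 (GRCh38.p14), with CpG dinucleotides in capitals.
CCND3: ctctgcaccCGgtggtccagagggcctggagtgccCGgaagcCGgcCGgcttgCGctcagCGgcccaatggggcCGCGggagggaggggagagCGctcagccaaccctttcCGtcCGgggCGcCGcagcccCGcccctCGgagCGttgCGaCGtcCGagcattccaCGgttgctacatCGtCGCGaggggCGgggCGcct
CDK6: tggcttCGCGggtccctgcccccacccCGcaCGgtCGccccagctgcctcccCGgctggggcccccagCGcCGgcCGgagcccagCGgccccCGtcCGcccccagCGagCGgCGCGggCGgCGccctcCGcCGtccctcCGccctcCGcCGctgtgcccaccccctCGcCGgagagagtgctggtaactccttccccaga
Both are GC-rich, with a GC content of 74.0% and 80.5% and 25 CpG dinucleotides each. CCNE2 was left out of the promoter search, so nothing is said of its promoter. In the 300 bases around the canonical start (250 before, 50 after), 6 of the 10 genes had an entry that was searched: CCND3, CCNE1, CDK4, CDK6, CDKN1B and CDKN2C. None of the 6 held the E2F motif (TTTCCCGC, TTTCGCGC, TTTGCCGC or TTTGGCGC, on either strand) or the STAT motif TTCNNNGAA, against 3.31% and 7.66% of all 35116 promoter windows. This says only that these letters do not occur in these windows.

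The wider G1 network was described with 62 further genes in 5 lists, of which 56 were tested, 11 lower and 5 higher (28.6% called, against 15.3% of all genes tested). The list of pocket proteins, E2F and DP factors held most of the genes called lower. Of its 12 tested genes, 6 were lower and 1 higher (58.3% called), with a median log2 fold change of −0.10. E2F7 and E2F8, atypical E2Fs that repress transcription, had log2 fold changes of −0.65 with an SE of 0.083 (adjusted p = 1.89e-06) and −0.28 with an SE of 0.066 (adjusted p = 0.00353). E2F1 and E2F2, activators held back by RB1, had −0.21 (SE 0.037, adjusted p = 1.72e-04) and −0.18 (SE 0.048, adjusted p = 0.00992). E2F2 did not pass without shCtrl replicate 3 (0.0626) or shmiR155HG replicate 1 (0.0671). The third activator, E2F3, was the gene called higher, from 110.6 ± 3.58 CPM (SD, n = 3) to 123.2 ± 6.64 CPM (log2 fold change 0.16, adjusted p = 0.0312). It did not pass without shCtrl replicate 1 or 3 or shmiR155HG replicate 1 or 2 (adjusted p = 0.0656 to 0.200 by edgeR).

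Among 9 other cyclins, CDKs and inhibitors tested, CDK1, the mitotic kinase, fell from 139.4 ± 9.39 to 106.7 ± 4.35 CPM (log2 fold change −0.39, SE 0.051, adjusted p = 3.19e-06), and the other 8 did not pass. In the DREAM and MuvB list of 7 genes, the Myb factors went opposite ways, MYBL2 lower by a log2 fold change of −0.25 with an SE of 0.042 (adjusted p = 8.63e-05) and MYBL1 higher by 0.21 (SE 0.045, adjusted p = 0.00166). Of 9 genes for CDK activation and its phosphatases, WEE1, a kinase that inhibits CDK1 and CDK2, was the only 1 called, higher by 0.20 (SE 0.066, adjusted p = 0.0359), and it did not pass without shCtrl replicate 2 or 3 or shmiR155HG replicate 2 or 3 (adjusted p = 0.0785 to 0.157 by edgeR). Of 19 genes for the ubiquitin ligases that degrade G1 cyclins and inhibitors, 3 were lower and 2 higher (26.3% called). The share called was 11.1% of the other cyclins, CDKs and inhibitors and 11.1% of the CDK activation list. It was 28.6% of the DREAM and MuvB list, against 15.3% of all genes tested. SKP2, the F-box protein that targets p27, was lower by a log2 fold change of −0.29 with an SE of 0.061 (adjusted p = 0.00136), and CKS1B, its cofactor in that step, by −0.15 (SE 0.049, adjusted p = 0.0300). DTL, an adaptor of the CUL4 ligase, had −0.15 (SE 0.041, adjusted p = 0.0137), and FZR1, an activator of the anaphase-promoting complex in G1, 0.23 (SE 0.067, adjusted p = 0.0207, with overlapping groups). DTL did not pass without shmiR155HG replicate 3 (0.0856). CKS1B did not pass without shCtrl replicate 1 or 2 or shmiR155HG replicate 2 or 3 (0.0737 to 0.123), and FZR1 did not without replicate 1 or 3 of either group (0.0740 to 0.115). The 5 genes called higher in the network became 2 without shCtrl replicate 1, shmiR155HG replicate 1 or shmiR155HG replicate 2, and 3 without shCtrl replicate 3 or shmiR155HG replicate 3.

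The genes that E2F switches on for S phase were lower more often than not. Of 30 such genes, all tested, 16 were lower at an adjusted p under 0.05 by edgeR (53.3%, against 8.02% of all genes tested) and the other 14 did not pass, with a median log2 fold change of −0.12. RRM2, the subunit of ribonucleotide reductase made in S phase, went from 978.5 ± 17.8 CPM (SD, n = 3) to 746.0 ± 7.19 CPM (log2 fold change −0.39, SE 0.030, adjusted p = 2.00e-10). CDC45, a part of the replicative helicase, had −0.35 (SE 0.055, adjusted p = 3.26e-05), RFC4, a subunit of the PCNA clamp loader, −0.28 (SE 0.052, adjusted p = 3.87e-04), and TK1, the thymidine kinase, −0.25 (SE 0.051, adjusted p = 7.90e-04). The genes that did not pass include MCM2, MCM5, MCM6, MCM7, CDT1 and GINS2, which load or form the replicative helicase, while MCM3 (−0.19, adjusted p = 9.61e-05) and MCM4 (−0.21, adjusted p = 4.71e-05) of the same helicase did.

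Genes of mitosis and proliferation did not move together, with 4 lower and 4 higher of 17 tested (47.1% called, against 15.3% of all genes tested) and a median log2 fold change of 0.07. CENPF, a kinetochore protein, rose from 625.9 ± 16.4 to 806.6 ± 28.7 CPM (log2 fold change 0.37, SE 0.033, adjusted p = 4.80e-09), and CDC20, an activator of the anaphase-promoting complex, by 0.31 (SE 0.042, adjusted p = 5.10e-06). PLK1, a mitotic kinase, rose by 0.22 (SE 0.054, adjusted p = 0.00585), while CCNF, which encodes cyclin F, fell by 0.21 on the log2 scale (SE 0.059, adjusted p = 0.0125). PLK1 did not pass without shCtrl replicate 1 (0.0509) or shmiR155HG replicate 3 (0.0597), nor CCNF without shCtrl replicate 3 (0.104) or shmiR155HG replicate 1 (0.0917). Over both lists, 20 genes were lower, and 13 without shmiR155HG replicate 2. The lists of S-phase and mitosis genes were described by counts, and a difference between them was not tested.

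**Figure D4:**
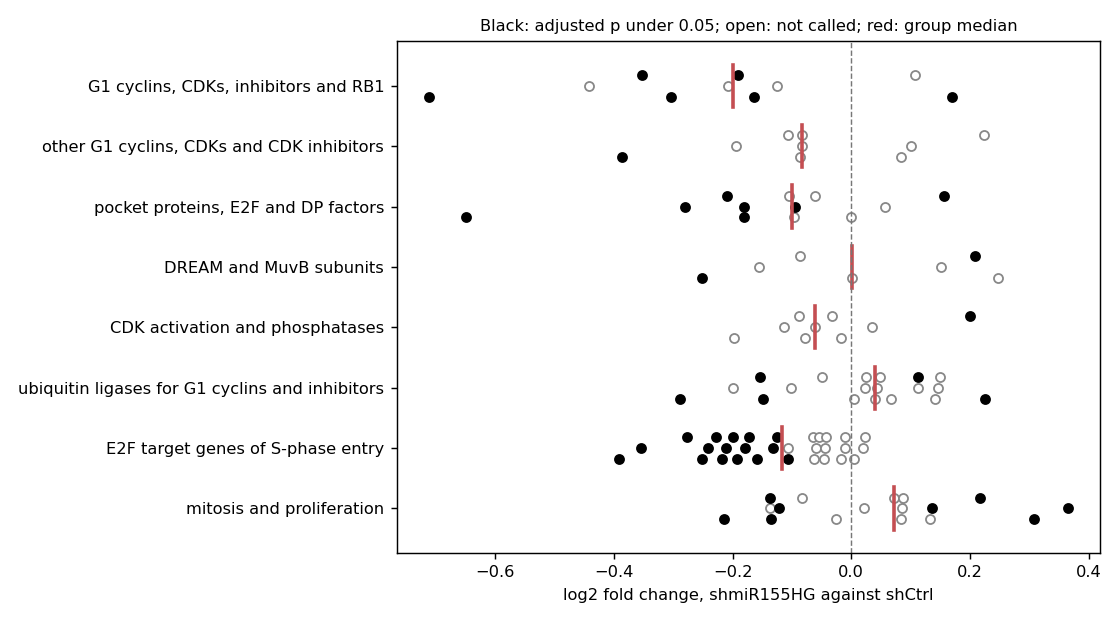
Log2 fold change of every tested gene (1 point each) in the 10-gene set, the 5 further G1 lists, the S-phase list and the mitosis list, black where the adjusted p is under 0.05, with the median of each list as a red line. The medians of the first group (−0.20), the E2F list (−0.10) and the S-phase list (−0.12) lie left of 0, and the called mitosis genes lie on both sides.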

How the data were processed

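RNA-seq libraries of NK92 cells with a control or a miR155HG-directed shRNA were used, 3 per group. Per the paper's methods, the authors mapped reads to hg38 with HISAT2 and obtained read counts with StringTie and prepDE.py3. They deposited whole-number counts per gene, without normalization. The annotation release, strandedness and read length given to prepDE.py3 are not given in the sources used here, and the counts scale with that read length. The treatment labels of shmiR155HG replicates 2 and 3 name the gene with other numbers, and the group was taken from the titles.

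The 12263 of 36601 genes that passed 1 CPM in 2 or more libraries were scaled with TMM and compared by the quasi-likelihood test of edgeR 4.0.16 (R 4.3.3, robust fit, Benjamini–Hochberg adjustment, threshold 0.05). Adjusted p-values are of this test unless another is named. The 95% intervals use its SE and degrees of freedom. DESeq2 1.42.0, limma-voom (limma 3.58.1) and the study's exact test were alternatives, with other scalings and filters, counts divided by 2, a replicate block and each library left out. The method was tested on simulated data whose planted changes were larger than those of the 10 genes other than CCNE2. That test does not show how well changes of their size are recovered. The common biological coefficient of variation was 8.71%. Ratios of paralogs were compared by exact permutation. Lengths, positions and 3′UTRs came from GENCODE v44 (hg38), in which all 10 genes matched by ID, and promoters and the miRNA from RefSeq.

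The genes and lists were chosen with earlier results of these data known. Named were the 10 genes, CCND1, CDKN1A, CDKN2A, CDKN2B, MIR155HG and JAK3, and in each list up to 4 called genes with the largest absolute fold change. RBL1, E2F3, INTS8, TSPAN31, LPAR6, the NK markers that passed, MCM3, MCM4 and the S-phase genes that did not pass were named after their values were seen.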

Additional observations from a re-analysis of the deposited data

How the results depend on the processing

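Under the exact test with the study's rule (P under 0.01 without adjustment, change above 1.2-fold), none of the 10 genes was called higher and 3 were called lower, since the fold changes of CCND2, CDK6 and RB1 are under 1.2. CCND2 had an adjusted p of 0.00143 in that same test. The rule called 551 genes higher and 466 lower of all tested, against 890 and 984, with 0 higher and 4 lower in the wider G1 network, and 2 higher and 3 lower among the S-phase and mitosis genes. With the replicate block, 1 of the 10 genes was higher and 6 were lower, CDK4 being added (adjusted p = 0.0495). Same-numbered libraries did not deviate together (r = −0.013, 0.012 and 0.020 over genes), so the numbers were not taken as pairs. Leaving out 1 library at a time gave 580 to 891 genes higher and 674 to 917 lower of all tested, 5 to 6 of the 10 genes lower and 1 higher, 2 to 4 genes higher and 8 to 9 lower in the network, and 13 to 17 lower and 3 to 5 higher in the S-phase and mitosis lists. The difference of log2 ratios ranged from 0.50 to 0.57 for CCND2 to CCND3, from 0.12 to 0.39 for CCNE1 to CCNE2 and from 0.0077 to 0.11 for CDK4 to CDK6. The log2 fold change of CDKN1A was 0.22 with all libraries. Without shCtrl replicate 2 or shmiR155HG replicate 3, CDKN1A did not pass the expression filter and was not tested. In the other leave-outs its log2 fold change ranged from −0.15 without shCtrl replicate 3 to 0.54 without shmiR155HG replicate 2. CCNE2, CCND3 and CDK2 were called lower in all 15 alternatives. CCNE1, with 270 to 458 counts per library, had the largest SE of the 10 genes (0.16), and it was called without shCtrl replicate 1 (adjusted p = 0.0284). No scaling moved the median of all genes by over 0.1 on the log2 scale.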
